A study of Homo sapiens with 16 samples.

Results

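The comparison described here set the binding sites of RAD21 against those of CTCF in LoVo cells arrested in early S phase. Its members were all peaks of the S-phase RAD21 list (27122 peaks) and all peaks of the S-phase CTCF list (28474 peaks), together 55596 of the 146596 peaks in the 12 lists of the series. A peak was called shared when a peak of the other list overlapped it by at least 1 bp, and private otherwise. Each protein had 1 library in each phase, so no value had a replicate, and a spread between samples could not be had. The intervals given for shares are exact Clopper-Pearson 95% intervals over peaks, and the interval of a difference between shares is a Newcombe 95% interval. They cover counting error only.

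RAD21 is the subunit that closes the ring of cohesin, the complex that encircles DNA, holds sister chromatids together after replication and shapes interphase chromosomes into loops. CTCF is a zinc-finger protein that binds a long asymmetric sequence motif. In the usual account, cohesin that moves along chromatin is halted at CTCF on the side of the protein's N terminus, so the main sites of cohesin and CTCF coincide. Cohesin is also found at enhancers and promoters without CTCF, where it accompanies transcription factors and its loader.

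LoVo is an established human colon adenocarcinoma line. The cells of the S-phase libraries went through a pair of 12 h blocks in 2 mM thymidine, with 8 h of release between them. The M-phase libraries, used here as a second measurement of each site, came from cells given thymidine for 12 h and then 200 ng/ml nocodazole, a microtubule poison, for 8 h. All cells were fixed in 1% formaldehyde, and each immunoprecipitation used 5 µg of antibody and DNA fragments of 200 to 400 bp. RAD21 was set against a rabbit IgG control and CTCF against goat IgG, each from the same phase. Lists of their own existed for histone H3 and for 3 transcription factors: HNF4A, a nuclear receptor of liver and gut lining cells, KLF5, a Krüppel-like factor of dividing crypt cells, and MYC, which drives growth. RAD21 siRNA is mentioned in the design text of the series, yet none of the sample labels names it. Peak lists hold no expression values, so the identity of the cells could not be checked against marker genes.

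The depth of both S-phase ChIP libraries was nearly equal after repeated tags were removed, with 7531890 tags for RAD21 and 7520364 for CTCF. Their other properties were not equal. Repeated tags made up a fraction of 0.08 of the RAD21 library and 0.37 of the CTCF library, and the controls held 10753369 and 3658103 filtered tags. The fragment size estimated by the caller was 213 bp for RAD21 and 308 bp for CTCF, and median peak widths were 884 and 1396.5 bp. The CTCF list therefore covered 41.3 Mb of the genome and the RAD21 list 24.6 Mb. Every RAD21 peak had a false discovery rate (FDR) of at most 1.44%, whereas 8284 CTCF peaks (29.1%) had one of 5% or more. Because these properties differ, scores and fold enrichments were compared within a list or by rank, and tags were set side by side only at paired peaks.

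Most sites of either protein were sites of both. Of the RAD21 peaks, 20678 were shared (76.2%, 75.7 to 76.7%) and 6444 private. Of the CTCF peaks, 20335 were shared (71.4%, 70.9 to 71.9%) and 8139 private. These 2 percentages are the rates for the whole lists and are the background against which the shares of smaller groups stand. When peaks that touch were merged into sites on chromosomes 1 to 22 and X, 34844 sites resulted, of which 58.3% carried both proteins, 18.4% RAD21 alone and 23.3% CTCF alone.

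The division was clear-cut in space. Only 10 private RAD21 peaks and 6 private CTCF peaks ended within 100 bp of a peak of the other protein, and within 1000 bp there were 165 (2.56%) and 232 (2.85%). The median distance from the edge of a private RAD21 peak to the nearest CTCF peak was 35.9 kb, and from a private CTCF peak to the nearest RAD21 peak it was 22.8 kb. At the other end, only 2 of 19979 pairs overlapped by fewer than 100 bp.

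Those 19979 pairs, in which a single RAD21 peak met a single CTCF peak and no other, are the 1:1 pairs used below. The rest of the shared peaks were 335 CTCF peaks that met 2 RAD21 peaks, 8 that met 3, and 8 RAD21 peaks that met 2 CTCF peaks, with their partners. The typical pair was a narrow RAD21 peak nested in a broad CTCF peak. The median overlap was 905 bp (quartiles 751 and 1063), the RAD21 peak lay wholly inside the CTCF peak in 77.2% of pairs and the reverse held in 1.90%. The RAD21 summit, the position of highest tag density, fell within the CTCF peak in 99.96% of pairs. A median RAD21 peak of these pairs held 25 tags over 931 bp, and a median CTCF peak 50 tags over 1450 bp. As deposited, CTCF held more tags in 89.6% of pairs and more tags per 1000 bp of its own width in 71.5%. The lists differ in antibody, repeated tags, fragment size and called width, which cannot be told apart from the protein here.

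Private peaks were the weaker ones on both sides. The median private RAD21 peak held 13 tags at 7.51-fold enrichment over the local background in 728 bp, and the median shared RAD21 peak 24 tags at 12.5-fold in 931 bp. For CTCF the private median was 25 tags at 11.6-fold in 1220 bp, against 51 tags at 17.2-fold in 1458 bp when shared. An FDR of 5% or more was attached to 55.3% of private and 18.6% of shared CTCF peaks. Accordingly 82.0% of CTCF peaks with an FDR under 5% were shared and 45.7% of those at 5% or more, against 71.4% of the whole list.

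The share with a partner climbed steadily with strength. In the weakest of 10 equal groups by MACS score (a multiple of the negative log10 of the caller's p-value, so that higher is stronger), 40.3% of RAD21 peaks (38.5 to 42.2%) and 36.9% of CTCF peaks (35.2 to 38.7%) were shared. In the strongest group these shares were 98.8% (98.3 to 99.2%) and 95.1% (94.2 to 95.8%). Of the 1000 RAD21 peaks of highest score 996 met a CTCF peak, and of the 1000 strongest CTCF peaks 960 met a RAD21 peak. At equal group number the RAD21 share was the higher in all 10 groups.

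**Figure D1:**
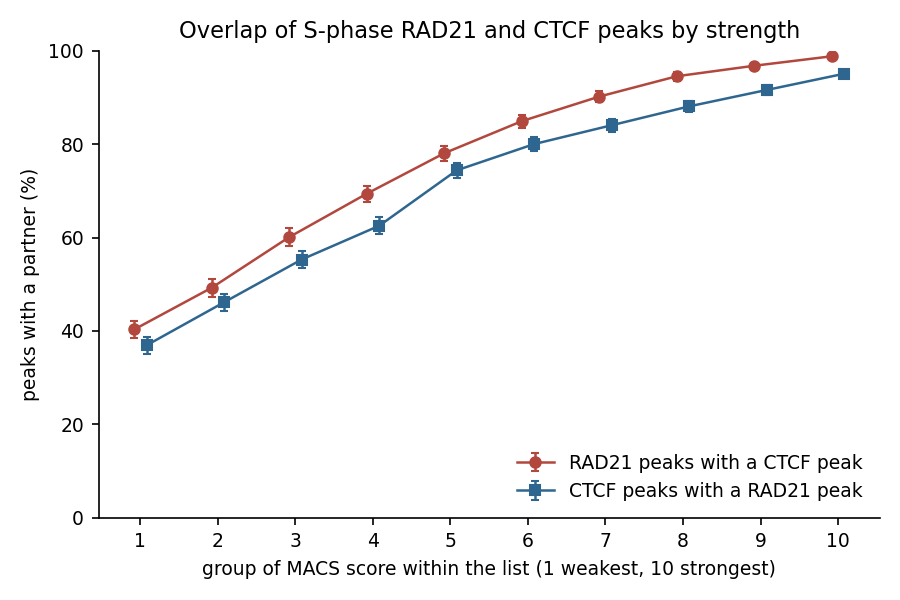
Percentage of S-phase peaks overlapped by a peak of the other protein (vertical axis) in 10 equal groups of each list's own MACS score (horizontal axis, weakest to strongest), RAD21 as circles and CTCF as squares with 95% Clopper-Pearson intervals over peaks. RAD21 goes from 40.3% to 98.8% and CTCF from 36.9% to 95.1%, and the CTCF points lie below the RAD21 points throughout.

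Wide peaks have more room to overlap, and width moved with score. Within the narrowest of 3 width groups, the RAD21 share rose over 3 equal groups of score from 39.0 to 55.0 and 81.1%, and within the widest from 76.5 to 94.8 and 98.4%. CTCF gave 33.7, 53.3 and 80.6% in its narrowest group and 67.7, 87.0 and 93.8% in its widest. Score and share thus rose together within these width groups in both lists. Median width still rose with score inside them, from 628 to 690 bp in the narrowest RAD21 group. In the narrowest CTCF group it rose from 952 to 1103 bp. The part of this remaining width was not tested. Width itself did not act evenly: the widest of 10 groups of CTCF peaks, with a median of 2296 bp, had a shared percentage of 78.5, below the 84.9% of the group before it.

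Where both proteins were listed, their summits were close. The median distance between the RAD21 and the CTCF summit of a pair was 47 bp (quartiles 22 and 84), with 52.8% of pairs within 50 bp, 82.3% within 100 bp and 96.7% within 200 bp. Both summits fell on the same base in 109 pairs. Only 192 pairs (0.961%) were more than 500 bp apart, and the widest separation was 2594 bp.

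These distances were little larger than those between libraries of the same protein. From S to M phase the RAD21 summit moved by a median of 41 bp at 18670 1:1 sites, and the CTCF summit by 35 bp at 19311 sites. Peaks of the transcription factors that overlapped RAD21 were centred much farther away. The median was 213 bp for HNF4A (2653 pairs), 212 bp for KLF5 (1543 pairs) and 194 bp for MYC (3010 pairs). Around CTCF the factor summits were farther still, at 308 bp for HNF4A, 291 bp for KLF5 and 269.5 bp for MYC. CTCF peaks were wider than RAD21 peaks (medians of 1396.5 and 884 bp), and the part of width in this was not tested. The median widths of the factor lists were 1149 bp for HNF4A, 1330 bp for KLF5 and 1354 bp for MYC. All these widths are of whole lists and not of the pairs.

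**Figure D2:**
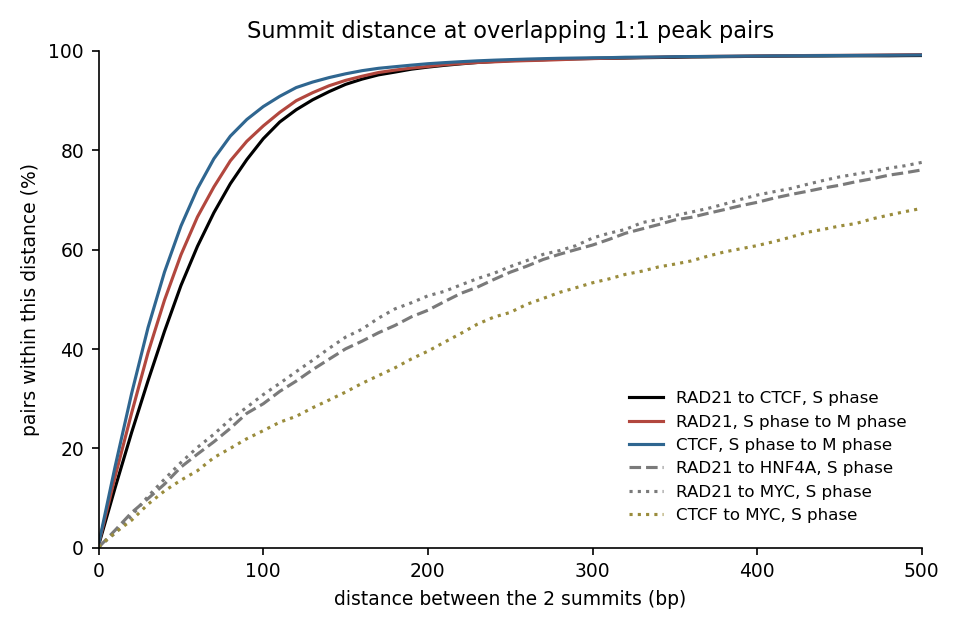
Cumulative percentage of 1:1 pairs (vertical axis) against the distance between both summits in bp (horizontal axis, up to 500 bp), for S-phase RAD21 to CTCF, for each of these proteins from S to M phase, and for RAD21 to HNF4A, RAD21 to MYC and CTCF to MYC. The RAD21 to CTCF line reaches 82.3% at 100 bp, just under the same-protein lines, while the 3 factor lines lie between 23.6 and 30.8% there.

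Stronger peaks were placed closer together. In 5 equal groups of RAD21 tags the median distance went from 57 bp through 52, 46 and 44 to 41 bp. By CTCF tags it fell from 55 bp to 49, 45 and 42 bp over the first 4 groups and was 46 bp in the strongest, where 2.63% of pairs were more than 500 bp apart against 0.200% in the weakest. The 3 widest separations on the chromosomes considered for naming were all at long CTCF peaks. In the human build hg18, the first lay at chr9:79259579-79263411, where a CTCF peak of 135 tags had its summit 2594 bp from that of a RAD21 peak of 22 tags at its left end. At chr12:52894009-52898431 a CTCF peak of 520 tags and a RAD21 peak of 21 tags were 2273 bp apart, and at chr4:106611477-106615302 the distance was 2260 bp with 151 and 17 tags.

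The side of the offset recurred between the phases in a modest majority of sites. Taken along the chromosome, the RAD21 summit lay left of the CTCF summit in 9969 pairs and right of it in 9901, so there was no net side. At 13421 sites that formed 1:1 pairs in both phases, the signed S-phase offset could be set beside the M-phase offset, which came from other libraries. Across these sites the rank correlation (Spearman's rho) of both offsets was 0.135. Among the 2264 sites with an offset of at least 50 bp in both phases, RAD21 was on the same side of CTCF in 1389 (61.4%, 59.3 to 63.4%) and on the other side in the rest. The points share a position and its surrounding sequence, and the strand of the CTCF motif was not read.

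The strength of both proteins at a shared site went together only in part. Over the 19979 pairs rho was 0.532 for tags, 0.422 for score and 0.262 for fold enrichment. With tags divided by the width of each peak it was 0.488. The points of these correlations share a position, hence local mappability and copy number, and tags also follow width, whose own rho between the lists was 0.341. Between phases, the same measure gave 0.748 for tags and 0.499 for fold enrichment of RAD21, and 0.620 and 0.273 for CTCF. M-phase RAD21 and CTCF gave 0.443 and 0.235 at 16223 pairs. For fold enrichment, the value between S-phase RAD21 and CTCF (0.262) was thus close to that of CTCF between phases (0.273), at different sets of pairs. For tags it was lower, 0.532 against 0.620. At the S-phase pairs, CTCF tags and CTCF fold enrichment had a rho of only 0.357 with each other, against 0.633 for RAD21.

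In levels, the trend was gradual. Over 4 groups of about equal size by RAD21 tags, from low to high (medians of 13, 20, 29 and 46 tags), the median CTCF peak held 32, 42, 54 and 80 tags. Over 4 groups by RAD21 fold enrichment the median CTCF enrichment was 14.2, 16.2, 17.8 and 21.4-fold. The strongest of 10 groups by fold enrichment held 1993 RAD21 and 1984 CTCF peaks, and 444 pairs were in both, which is 22.3% of these RAD21 and 22.4% of these CTCF peaks. By tags 715 pairs were in both, 37.0% of the strongest RAD21 and 36.0% of the strongest CTCF group.

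**Figure D3:**
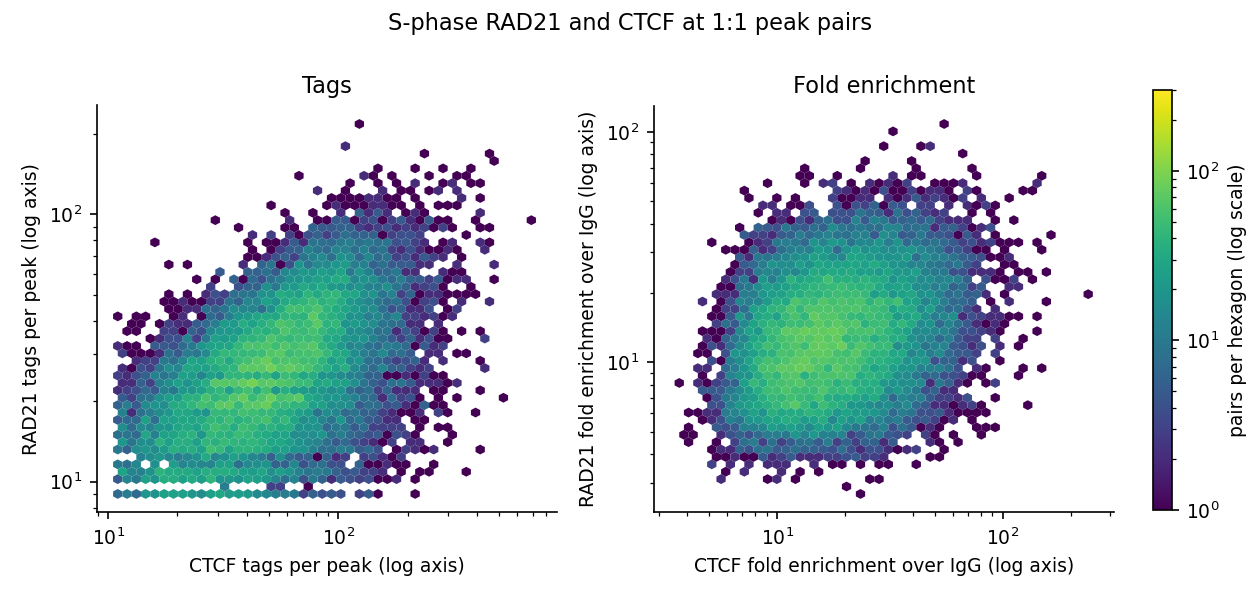
RAD21 (vertical axis) against CTCF (horizontal axis) at the 19979 1:1 pairs, tags per peak on the left and fold enrichment over IgG on the right, all axes logarithmic and colour giving pairs per hexagon on a log scale. The cloud is tilted for tags (rho 0.532) and rounder for fold enrichment (rho 0.262).

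Some sites were extreme for both proteins. The pair with the best joint rank of fold enrichment lay at chr1:158127538-158128500, where RAD21 held 87 tags at 64.83-fold and CTCF 207 tags at 150.03-fold, with summits 16 bp apart. On chromosome 10, RAD21 from 65470742 to 65471880 held 70 tags at 59.9-fold, and its CTCF partner 156 tags at 140.14-fold. The third, at chr22:34791480-34792697, had 73 RAD21 tags at 59.02-fold inside a CTCF peak of 445 tags at 147.93-fold. It was the only 1 of the 5 leading pairs that also carried HNF4A, KLF5 and MYC peaks in S phase. At the fourth, chr14:76449182-76450561, the summits were 236 bp apart although RAD21 held 106 tags at 56.34-fold, and at the fifth, chr9:70388746-70390023, they were 2 bp apart. All 5 had RAD21 and CTCF peaks in M phase as well. Among shared RAD21 peaks of the strongest of 3 score groups, 96.9% had M-phase RAD21 and 90.3% M-phase CTCF. All 3 factors were present at 2.03% of shared RAD21 peaks.

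Other pairs were extreme for only 1 protein. The largest excess of the RAD21 over the CTCF rank was at chr2:57801377-57802331, where RAD21 at 53.47-fold stood in percentile 99.6 of the pairs and CTCF at 7.22-fold in percentile 3.31. That CTCF peak held 48 tags over 1573 bp. The largest opposite difference was at chr11:63676851-63677545, with RAD21 at 4.69-fold (11 tags) in percentile 1.70 and CTCF at 81.95-fold (117 tags) in percentile 99.5, together with a MYC peak. At chr7:130882037-130882361, 10 RAD21 tags at 5.09-fold met 187 CTCF tags at 90.81-fold. Both of these sites had a RAD21 peak again in M phase, with 24 and 27 tags.

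The balance of ranks went with M-phase occupancy for RAD21, and for CTCF only at the CTCF-weighted end. The pairs were put into 5 equal groups by the RAD21 minus the CTCF percentile of fold enrichment. By construction, median RAD21 enrichment rose over these groups from 8.22 to 19.1-fold, and median CTCF enrichment fell from 27.1 to 11.3-fold. Over 3 groups of score, 53.9, 80.0 and 96.9% of shared RAD21 peaks had an M-phase RAD21 peak. Balance and strength therefore cannot be told apart here. From the most CTCF-weighted to the most RAD21-weighted group, the share with an M-phase RAD21 peak was 76.3, 78.5, 78.5, 83.0 and 90.8%. The share with an M-phase CTCF peak was 84.1, 78.6, 76.6, 77.2 and 79.0% in the same order, lowest in the middle group and raised in the most CTCF-weighted one. Over the whole lists, 69.7% of RAD21 peaks met an M-phase RAD21 peak and 65.6% an M-phase CTCF peak. Over all CTCF peaks the shares were 64.3% for M-phase RAD21 and 69.4% for M-phase CTCF. The whole lists include private peaks, whereas the 5 groups hold shared ones only. For shared RAD21 peaks the shares were 81.2% for M-phase RAD21 and 79.1% for M-phase CTCF, and for shared CTCF peaks 81.6 and 79.5%. A peak of HNF4A, KLF5 or MYC was present at 11.4, 11.2, 14.8, 12.3 and 10.8% of the 5 groups, with no trend from either end to the other. The rates for the whole lists were 17.4% of RAD21 and 15.0% of CTCF peaks, and for shared peaks 13.0 and 13.5%.

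Part of the private peaks had their missing partner in the M-phase lists. Of the 6444 private RAD21 peaks, 1440 (22.3%) overlapped an M-phase CTCF peak, 911 of them together with M-phase RAD21. This was far below the 65.6% of the RAD21 list and the 79.1% of shared RAD21 peaks. Of the 8139 private CTCF peaks, 1724 (21.2%) overlapped an M-phase RAD21 peak, 1096 of them together with M-phase CTCF. M-phase RAD21 overlapped 64.3% of the CTCF list and 81.6% of shared CTCF peaks. The M-phase partner was close to the private summit, beside the 47 bp of S-phase pairs. The median summit distance was 60 bp at 1430 such RAD21 peaks and 45 bp at 1720 such CTCF peaks. No peak of either protein was listed in M phase at 3786 private RAD21 peaks, whose median score was 69.3, or at 3921 private CTCF peaks, with a median of 71.6. Where both were listed in M phase the medians were 130 and 147.

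At high scores most private peaks were found again in M phase, and fewer had the partner there. In the strongest of 3 equal groups of the RAD21 list by score only 338 peaks were private. Of these, 90.2% overlapped an M-phase RAD21 peak and 63.6% an M-phase CTCF peak, against 96.9 and 90.3% of the shared RAD21 peaks in that group. In the strongest such group of the CTCF list 854 peaks were private, of which 89.3% overlapped M-phase CTCF and 37.6% M-phase RAD21, against 94.0 and 91.3% of the shared CTCF peaks there. The M-phase RAD21 and CTCF libraries were both deeper than their S-phase counterparts, with 16510005 and 14186052 filtered tags. An FDR of 5% or more was attached to 37.7% of M-phase RAD21 and 63.4% of M-phase CTCF peaks.

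Single peaks are given as examples from the upper end of the private class. The 5 RAD21 peaks of highest fold enrichment without a CTCF peak within 1000 bp all had an M-phase CTCF peak, with 14 to 45 tags, and an M-phase RAD21 peak, with 34 to 97 tags. None overlapped HNF4A, KLF5 or MYC. A factor was present at 17.4% of the RAD21 list and at 13.9% of private RAD21 peaks in the strongest of 3 score groups. A count over 5 peaks cannot be told from these rates. The first, at chr14:61715422-61716611, held 52 RAD21 tags at 51.81-fold, the enrichment of rank 94 in the list, and the nearest S-phase CTCF peak was 15.1 kb away. At chr18:47448133-47449370, RAD21 held 70 tags at 49.71-fold, and the M-phase peaks 83 RAD21 and 45 CTCF tags. The third, at chr6:67832929-67833712, held 37 tags at 48.01-fold in 784 bp.

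The 5 private CTCF peaks of highest fold enrichment without a RAD21 peak within 1000 bp were CTCF sites in both phases. The first, at chr11:65746190-65747781, held 215 CTCF tags at 113.77-fold, rank 26 of its list, with the nearest S-phase RAD21 peak 34.1 kb away and 30 RAD21 tags in M phase. At chr2:118287744-118289888, 184 CTCF tags at 98.71-fold lay with a MYC peak of 41 tags, and no RAD21 peak was listed there in either phase. On chromosome X, the CTCF peak from 129081632 to 129083032 with 95 tags at 86.7-fold had no RAD21 peak in either phase. Of the 5, 3 had an M-phase RAD21 peak and 2 an S-phase MYC peak. Over the whole CTCF list these shares were 64.3 and 10.9%. Among the 854 private CTCF peaks of the strongest of 3 score groups they were 37.6 and 30.4%, and 89.3% had M-phase CTCF. Counts over 5 chosen peaks cannot be told from these rates.

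Transcription factor peaks were found more often at RAD21 without CTCF. An S-phase HNF4A peak overlapped 22.95% of private RAD21 peaks (21.9 to 23.998%) and 6.75% of shared ones (6.41 to 7.10%), against 10.6% of the list. For KLF5 the shares were 11.8 and 4.50%, against 6.24%, and for MYC 21.5 and 9.34%, against 12.2%. At least 1 of the 3 factors was present at 31.5% of private and 13.0% of shared RAD21 peaks, and all 3 at 7.28 and 2.03%, against 3.28% of the list. Histone H3, the chromatin control, did not show this, with 0.372% of private and 0.484% of shared peaks, against 0.457% of the list.

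This difference shrank with strength. In the weakest of 3 groups of RAD21 score a factor was present at 35.7% of private and 16.5% of shared peaks, in the middle group at 24.2 and 11.9%, and in the strongest at 13.9% (47 of 338) and 12.1%. When a score of at least 100 was required of both proteins, the difference of 18.4 percentage points over all peaks fell to 1.55 points (0.396 to 2.75). In that setting a RAD21 peak over a weaker CTCF peak counts as private. The difference was 9.86 points when CTCF peaks needed an FDR under 5%, and 22.3 points when private peaks with an M-phase CTCF peak were left out. Private RAD21 peaks with RAD21 and CTCF both listed in M phase had a factor in 13.8% of cases, those with M-phase RAD21 alone in 31.2% and those with neither in 36.6%.

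Around CTCF the division mattered less over all peaks and ran the other way with strength. HNF4A was present at 8.26% of private and 7.19% of shared CTCF peaks (7.49% of the list), KLF5 at 6.32 and 4.79% (5.23%), and MYC at 14.3 and 9.60% (10.9%). Any of the 3 was present at 18.7 and 13.5%, and all 3 at 2.40 and 2.22%, against 2.27% of the list. H3 was present at 0.283 and 0.600%, against 0.509%. From the weakest to the strongest of 3 groups of CTCF score, a factor was present at 15.4, 19.8 and 35.6% of private peaks, and at 10.0, 10.1 and 18.1% of shared ones. In the strongest group, 30.4% of the 854 private CTCF peaks and 13.4% of the shared ones overlapped a MYC peak. CTCF peaks also widened with score, from a median of 1060 bp in the weakest of 10 score groups to 1744 bp in the strongest. The part of width in these factor shares was not tested. The excess at private peaks was 5.27 points over all peaks and 7.34 points with a score of at least 100 in both lists.

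**Figure D4:**
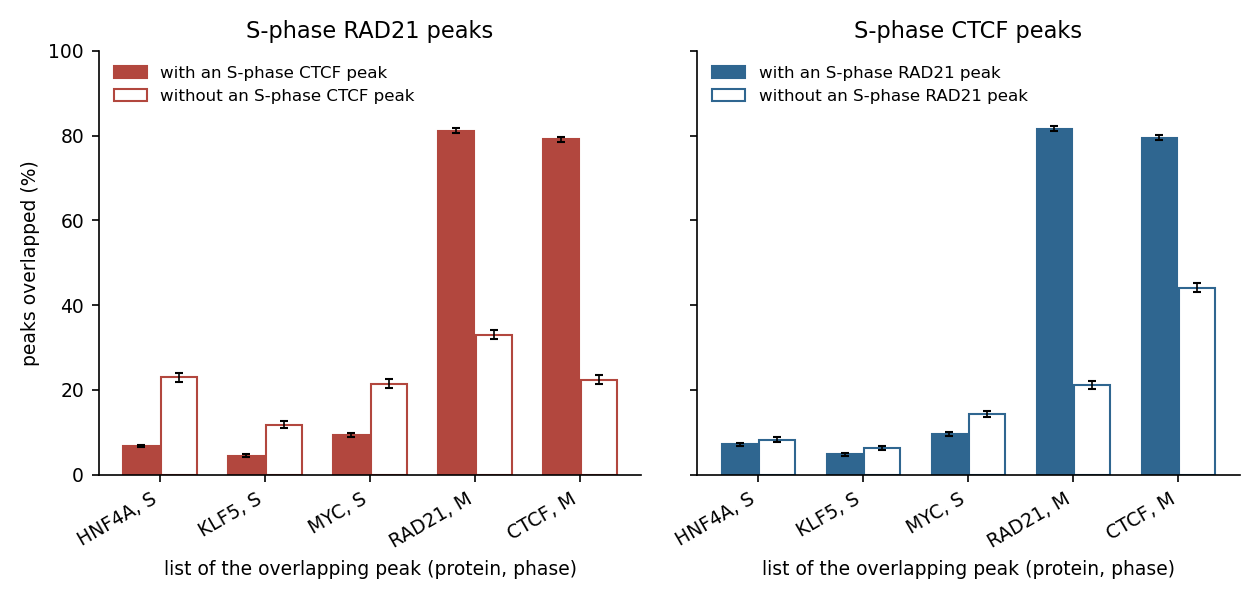
Percentage of S-phase RAD21 peaks (left) and CTCF peaks (right) overlapped by peaks of 3 S-phase factors and of M-phase RAD21 and CTCF, filled bars for peaks with a partner in S phase and open bars for those without, with 95% Clopper-Pearson intervals over peaks. The open bars are higher for the factors, above all at RAD21 (22.95 against 6.75% for HNF4A), and lower for the M-phase lists.

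Along the chromosomes, the spacing of each class was set in the first place by how many peaks it holds, so the order of the medians is a description. The median distance from a peak to the next was 54.4 kb for RAD21 (quartiles 19.95 and 123) and 44.4 kb for CTCF (16.5 and 107). For shared sites, taken at the CTCF summit, it was 68.0 kb (25.04 and 155). Private CTCF peaks were 136 kb apart (43.7 and 366) and private RAD21 peaks, the smallest class, 246 kb (76.7 and 580).

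Private peaks lay among shared ones but also next to their own kind. Of the sites with RAD21 alone, 30.4% had another such site as their nearest neighbour (29.3 to 31.6%), although these made up 18.4% of all sites. The same class was the nearest neighbour of 16.0% of sites with both proteins and of 12.4% of sites with CTCF alone. Sites with CTCF alone, 23.3% of all, were nearest to each other in 29.2% of cases (28.3 to 30.2%), and nearest to 23.4% of sites with both and 16.4% of sites with RAD21 alone. For a private RAD21 peak the nearest CTCF summit was 37.0 kb away in the median, while a shared RAD21 peak had a further CTCF peak, other than its partner, at 21.98 kb.

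The numbers of peaks in windows of 1 Mb told the classes apart. Over the 2800 windows with a RAD21 or CTCF peak, the counts of both had a rho of 0.903. Shared sites enter both counts, so a high value is in part built in. Counts of shared sites went with those of private CTCF peaks (0.653) more than with those of private RAD21 peaks (0.265), and both private classes had a rho of 0.130 with each other. Neighbouring windows share their chromosome, and gene density was not read.

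The densest stretch was the 100 kb window at chr12:50800001-50900000, with 9 CTCF peaks, all shared, of 45 to 156 tags, and 8 RAD21 peaks of 17 to 125 tags. The next, chr17:7900001-8000000, held 8 CTCF peaks, all shared, and 9 RAD21 peaks. The third, chr11:67100001-67200000, had 7 shared and 3 private CTCF peaks, and it was 1 of 4 windows with 7 shared peaks. Such windows were rare: of the windows with a shared CTCF peak, 6947 held 1 and 3296 held 2.

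Chromosomes differed in the balance of both proteins. RAD21 peaks per Mb of spanned sequence ranged from 3.36 on X to 14.2 on chromosome 17. CTCF peaks ranged from 4.51 per Mb on X to 18.1 on chromosome 19. Over 23 chromosomes the rho of both densities was 0.957. Shared sites enter both densities, so part of it is built in. RAD21 peaks outnumbered CTCF peaks on 8 of the 23. The ratio of RAD21 to CTCF peaks was highest on chromosome 13, at 1.15, and lowest on X, at 0.745, followed by chromosomes 19 (0.760), 16 (0.764) and 22 (0.774).

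Since shared peaks are nearly 1:1, a chromosome with more CTCF than RAD21 peaks has the lower CTCF share, and the shares restate these counts. RAD21 peaks were shared least on chromosome 13 (65.4%, 61.6 to 69.0%) and most on chromosome 19 (86.7%, 84.3 to 88.9%), around the 76.2% of the list. CTCF peaks were shared most on chromosome 4 (78.1%, 75.7 to 80.4%) and least on X (53.2%, 49.4 to 56.9%) and chromosome 16 (61.6%, 58.5 to 64.7%), around 71.4%. Private CTCF peaks were concentrated on the chromosomes rich in shared sites, from 1.43 per Mb on chromosome 4 to 6.47 on chromosome 19, with a rho of 0.883 to shared sites. Private RAD21 peaks ranged from 0.944 per Mb on X to 3.52 on chromosome 12, with a rho of 0.274.

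**Figure D5:**
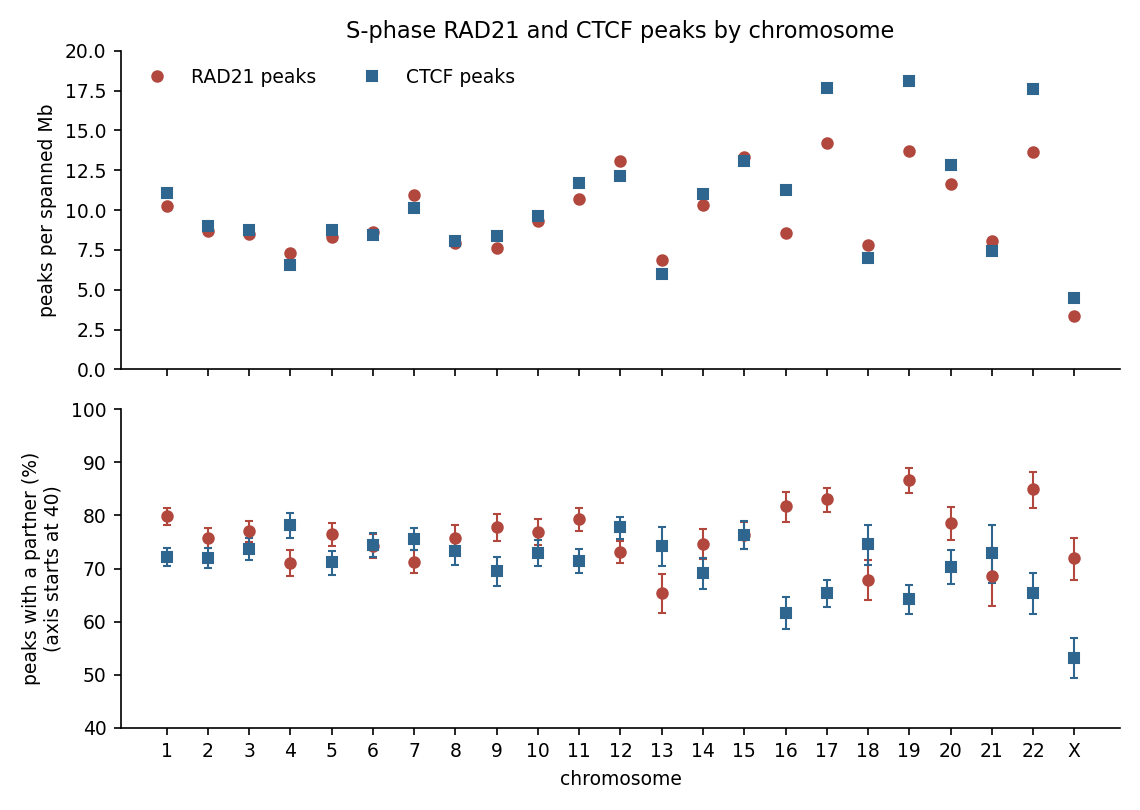
S-phase peaks per Mb of spanned sequence (top) and percentage of peaks with a partner (bottom, axis from 40%, with 95% Clopper-Pearson intervals over peaks) on chromosomes 1 to 22 and X, RAD21 as circles and CTCF as squares. CTCF is denser on chromosomes 16, 17, 19 and 22, where fewer of its peaks have a partner, and on X only 53.2% do.

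Chromosome X stood apart in the rank agreement too. At its 368 pairs rho was 0.282 for tags and 0.0787 for fold enrichment, whereas the other chromosomes ranged from 0.359 (chromosome 21, 197 pairs) to 0.563 (chromosome 1) for tags and from 0.211 to 0.351 for fold enrichment. The median summit distance on X, 52 bp, was within the range of 42 to 52 bp over the other chromosomes.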

How the data were processed

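Per the submitters' processing notes, reads were handled with CASAVA 1.4, aligned with BWA to hg18 and passed to MACS 1.4, and the file headers name MACS 1.4.0rc2. Per the file headers, each list was called against the IgG library of its phase, with a score cutoff of 50 and repeated tags removed. The tags and goat IgG of S-phase CTCF came from a differently named alignment set than those of RAD21. The labels do not say whether the cultures were the same. Tag counts per peak were deposited raw. The score deposited with each peak is a multiple of the negative log10 of the MACS p-value. Fold enrichment, as deposited, is a ratio of tags to local background, and the FDR, deposited as a percent, comes from exchanging ChIP and control. The labels speak of an FDR under 5%, yet their peak numbers equal the full lists, so all listed peaks were used.

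Overlaps, summit distances, ranks and spacing were computed in Python 3.11.15 (pandas 2.3.3, scipy 1.17.1, numpy 2.4.6). Simulated lists served to test the overlap share, median summit distance, rank correlation of tags and distance between peak edges, but not the spacing. Distances and ranks used 1:1 pairs. With 1 library per protein and phase no test across samples exists. Named regions, which avoid H3 peaks and lie on chromosomes 1 to 7, 9 to 22 or X, were the 5 pairs with the best worse percentile of fold enrichment, the 5 private peaks of each protein of highest fold enrichment with no partner within 1000 bp, the 4 pairs with the largest percentile difference in each direction, the 3 with the largest summit distance and the 3 windows of 100 kb with the most shared CTCF peaks. A part of these, in order, is named. The members, lists and comparisons were chosen with earlier results of these data known. Alternatives covered the overlap rule, minimum score and FDR, H3 peaks, the strength measure and the offset minimum. No hg18 sequence or annotation was used, so peaks were assigned to no gene and no motif was read.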

Additional observations from a re-analysis of the deposited data

How the results depend on the processing

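Over 9 results and 47 alternatives, a change of sign was possible only for the rank correlations and the differences in factor share. None occurred. Shares, distances and spacing cannot be negative, so this check could not fail for them. Offsets on the same side stayed in the majority at each offset minimum. For the factor differences, 6 alternatives gave a value outside the interval of the reported result. For the other results 29 alternatives did. The shared percentages moved with most rules, in part by construction since each rule changes which peaks can meet. For RAD21 and CTCF in turn they were 59.8 and 57.0 with 50% of each peak overlapped, 61.7 and 58.7 with summits within 100 bp, 73.4 and 69.96 within 250 bp, and 76.8 and 72.2 with a gap of up to 1000 bp. With a score of at least 100 in both lists they were 75.3 and 67.4, with an FDR under 5% in both 62.2 and 82.0, and among the 10000 strongest peaks of each list 58.2 and 57.7. With the score minimum only in the list counted, chosen after seeing the data, they were 88.8 and 82.5.

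The median summit distance was 44 bp with the score minimum and 46 bp with the FDR limit. With these limits in turn, rho was 0.492 and 0.477 for tags and 0.173 and 0.206 for fold enrichment, and shared sites were 98.3 and 77.0 kb apart, or 84.6 kb with summits within 100 bp. Per 1000 bp of width, rho for tags was 0.488. For fold enrichment, Pearson's r of log2 values was 0.275 and rho with summits within 100 bp 0.247. Offsets of at least 20 bp were on the same side in 58.6%. Apart from changes in which peaks enter, the cause was not tested. Leaving out peaks at H3 peaks moved none of the 5 results for which it was run beyond its interval.

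No paired analysis was possible because each protein had 1 library per phase and the labels carry no replicate numbers. The planned motif comparison was not run, as no genome of the hg18 build was used. A private peak is one without a listed partner: at 7531890 and 7520364 tags and a score cutoff of 50, a weaker partner was not detectable, and the goat IgG control of CTCF was the shallower, with 3658103 tags.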

Other observations

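The phase of the RAD21 library went with the distance to CTCF more than the phase of the CTCF library did. RAD21 summits in M phase lay a median of 34 bp from S-phase CTCF summits (18081 pairs) and 37 bp from M-phase ones (16223 pairs), while S-phase RAD21 summits lay 47 bp from S-phase CTCF (19979 pairs) and 49 bp from M-phase CTCF (17589 pairs). At the 13421 sites paired in both phases the medians were 44 bp in S phase and 36 bp in M phase. The M-phase RAD21 library held 16510005 filtered tags and the S-phase library 7531890, and the part of depth in this was not tested.

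In windows of 1 Mb, MYC peaks went with shared sites (rho 0.760 over 2800 windows) and with private CTCF peaks (0.671) more than with private RAD21 peaks (0.338). HNF4A peaks went with shared sites (0.723), private CTCF peaks (0.534) and private RAD21 peaks (0.432). These are descriptions over neighbouring windows that share a chromosome. The classes also differed in counts, with a median per window of 7 shared sites, 2 private RAD21 peaks and 2 private CTCF peaks. The part of this in rho was not tested. A rho over windows and an overlap at single peaks are different measures. At single peaks the factors were more frequent at private than at shared RAD21 peaks.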
